A study of Mus musculus with 28 samples.

Results

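Of the 63313 H3K27ac peaks in the authors' list, 6223 (9.83%) were shorter than 8000 bp and lay more than 50 kb from the span of every RefSeq protein-coding gene of the mouse genome build mm10. They are the gene-distant peaks, or members, described here. The cells were macrophages, grown over 5 days in L-cell supernatant from marrow that was taken from C57BL/6 males 8 to 10 weeks old. Cells were then given vehicle, 500 nM corticosterone (Cort, the natural glucocorticoid of mice), 100 nM dexamethasone (Dex, a synthetic glucocorticoid) or 10 ng/ml interleukin 4 (IL4). The agents were given for 24 h, and the labels of the H3K27ac vehicle libraries give no time. The labels name no transgene or deleted gene in any group. Chromatin was immunoprecipitated for acetylated lysine 27 of histone H3 (H3K27ac, 12 libraries, 3 a group) or for the glucocorticoid receptor (GR, 15 libraries in 2 labelled batches, 4 a group and 3 for IL4, which was in batch 2 alone). The labels do not say that libraries came from separate animals or cultures, so p-values cover the spread between libraries, which may be technical.

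H3K27ac marks nucleosomes beside active promoters and enhancers. Enhancers can lie far from the gene they act on, and the nearest gene is then not always the one they serve, so the genes named here give position and not target. GR is a nuclear receptor that enters the nucleus on binding a glucocorticoid and binds DNA mostly at enhancers that other factors, such as PU.1, AP-1 and C/EBP in macrophages, have already opened. IL4 acts on macrophages mainly through the transcription factor STAT6.

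The H3K27ac libraries held 6829787 to 15695771 counts in peaks and the GR libraries 900063 to 1981582. Of the GR counts, GR peaks in members held 5.22% to 7.36% a library. Outside the 1% of GR peaks with most reads, those in members held 3244 to 43959 counts a library. Macrophage identity was checked at marker genes, each read at its strongest H3K27ac peak within 5 kb of the gene span. Levels are in CPM (counts scaled to a common library size, edgeR's CPM with TMM factors) per kb of peak. Such a peak was at 12 of 12 macrophage genes, Csf1r, Spi1 and Adgre1 among them, with a median vehicle level of 22.0. Among genes of other cells, 0 of 6 mast cell or basophil genes, 1 of 9 fibroblast genes, 3 of 8 erythroid or megakaryocyte genes, 5 of 9 neutrophil genes, 5 of 10 lymphoid genes, 7 of 8 dendritic genes and 7 of 8 osteoclast genes had one. The median over the macrophage genes was 22.0, 24.9, 24.2 and 18.2 CPM per kb in vehicle, Cort, Dex and IL4. In the same order, and over the genes with a peak, the dendritic list read 13.8, 14.4, 14.6 and 18.3, the osteoclast list 9.72, 10.8, 10.7 and 11.8, and the neutrophil list 3.4, 4.82, 4.96 and 5.82. The lymphoid list read 11.9, 10.5, 10.5 and 9.08, the erythroid and megakaryocyte list 13.5, 14.9, 14.2 and 14.5, and Pdgfrb, the fibroblast gene with a peak, 13.1, 15.4, 16.6 and 10.5. Within the dendritic list, Flt3, Siglech and Xcr1 read 8.04, 8.09 and 30.6 in vehicle and 3.89, 3.7 and 23.7 in IL4, against the direction of that list's median. Ctss of the macrophage list and Ctsk of the osteoclast list read the same in every group, so a shared peak may count for both. The part of other cell types in the results was not tested.

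The median member was 847 bp long, against 1011 bp for the 56174 other peaks under the length limit, and its median level was 3.71 CPM per kb against 4.14. The median distance from a member to the nearest coding gene was 116 kb, with quartiles of 74.1 and 206 kb. The farthest, chr5:59996184-59996749, lay 1812 kb from one, in the gap between Pcdh7 and G6pd2, and carried 3.47, 3.03 and 2.85 CPM in the 3 vehicle libraries. The share of a chromosome's peaks that were members ran from 3.84% on chromosome 11 to 18.3% on chromosome 13. Far from a coding gene did not mean far from every transcript: 1724 members (27.7%) overlapped a non-coding or other annotated gene, 1521 of them a long non-coding RNA (lncRNA) gene, and 1323 (21.3%) were more than 50 kb from a gene of any kind.

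Members came in runs. Joined wherever the next member was under 50 kb away, they formed 1759 chains, 721 of them a single member, and 138 chains of 10 or more held 2264 members. The 6223 members shared 1451 nearest coding genes, and 38 genes were the nearest to 20 or more. Myc (the growth regulator) and Zeb2 (a zinc finger repressor of the macrophage lineage) were each nearest to 59 members, Adgrl2 (a latrophilin adhesion receptor) to 53, Cited2 (a CBP/p300-binding co-regulator) to 50, Klf6 (a Kruppel-like factor) to 44 and Id2 (an inhibitor of bHLH factors) to 31. Neighbours in a chain share a locus and are not independent.

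Peaks on either side of each threshold were set side by side, with 2 a side, too few to show a step or its absence. The 2 members just over 50 kb, near Creb1 and Kdm7a at 50003 and 50011 bp, read 3.75 and 3.66 CPM per kb, and the 2 peaks just under it, near Fancl and Spry2 at 49960 and 49954 bp, read 2.91 and 2.85. The 2 longest members, near Smim20 (7965 bp) and Enc1 (7940 bp), read 9.54 and 16.2 CPM per kb, and the 2 shortest peaks kept out by length, near Jarid2 (8103 bp) and Itm2b (8121 bp), read 10.3 and 22.0.

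No genome sequence was used, so the DNA shown comes from RefSeq promoter windows (build GRCm38.p6, the same assembly as mm10), which run from 250 bases before to 50 after a gene's start. Of these, 161 windows of 143 genes, all 143 lncRNA genes, lay wholly inside 140 members, and 23 of those members held a GR peak. The windows below show the start of an lncRNA inside members that rose with steroid and held a GR peak (C330002G04Rik, 4930471E19Rik and Gm30530), rose with IL4 (Gm6116) or fell with both Dex and IL4 (A730082K24Rik). They were chosen after the values were seen. Capitals mark the hexamer AGAACA that makes up each arm of a GR site (TGTTCT on the other strand), the AP-1 motif TGANTCA and the PU.1 core GAGGAAGT (ACTTCCTC on the other strand).
C330002G04Rik, chr19:23058043-23058342, minus strand: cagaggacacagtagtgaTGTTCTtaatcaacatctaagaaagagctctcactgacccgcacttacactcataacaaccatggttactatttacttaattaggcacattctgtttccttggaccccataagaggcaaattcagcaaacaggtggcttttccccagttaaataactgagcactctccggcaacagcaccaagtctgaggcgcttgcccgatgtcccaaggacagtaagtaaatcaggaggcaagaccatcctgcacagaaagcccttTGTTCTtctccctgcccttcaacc
4930471E19Rik, chr10:120636058-120636357, minus strand: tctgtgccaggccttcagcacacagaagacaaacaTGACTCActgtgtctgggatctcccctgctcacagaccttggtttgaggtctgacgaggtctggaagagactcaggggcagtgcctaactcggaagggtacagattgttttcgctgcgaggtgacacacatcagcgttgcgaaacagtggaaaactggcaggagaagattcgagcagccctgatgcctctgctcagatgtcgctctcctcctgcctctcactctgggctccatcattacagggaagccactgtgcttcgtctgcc
Gm30530, chr16:93193746-93194045, minus strand: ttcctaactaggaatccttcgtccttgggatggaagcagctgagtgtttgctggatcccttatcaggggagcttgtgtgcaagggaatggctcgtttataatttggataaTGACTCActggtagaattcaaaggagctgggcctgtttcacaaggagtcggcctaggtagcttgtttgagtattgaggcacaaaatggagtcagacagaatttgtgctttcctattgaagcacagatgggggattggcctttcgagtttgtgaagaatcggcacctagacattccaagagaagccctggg
Gm6116, chr5:74948944-74949243, plus strand: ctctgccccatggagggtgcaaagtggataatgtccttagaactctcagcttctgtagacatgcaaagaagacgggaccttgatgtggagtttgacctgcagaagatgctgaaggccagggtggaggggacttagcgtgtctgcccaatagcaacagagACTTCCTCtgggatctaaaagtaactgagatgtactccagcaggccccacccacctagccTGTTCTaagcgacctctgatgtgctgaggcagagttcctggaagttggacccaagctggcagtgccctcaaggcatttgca
A730082K24Rik, chr7:114948400-114948699, plus strand: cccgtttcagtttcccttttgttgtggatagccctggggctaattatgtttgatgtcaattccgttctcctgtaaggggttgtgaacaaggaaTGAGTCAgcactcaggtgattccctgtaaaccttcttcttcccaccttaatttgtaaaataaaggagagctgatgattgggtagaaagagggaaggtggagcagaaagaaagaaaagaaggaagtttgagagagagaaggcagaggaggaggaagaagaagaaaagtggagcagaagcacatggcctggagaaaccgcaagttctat

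Searched on both strands, the GR hexamer was in 48 of the 161 windows inside members (29.8%) and in 6233 of all 32851 windows of that length. AP-1 was in 16.1% against 7.81%, the PU.1 core in 11.8% against 3.2%, the STAT6 motif (TTC and GAA with 4 bases between) in 8.07% against 6.95% and the C/EBP motif TTGCNNCAA in 1.24% against 2.08%. The GR palindrome (AGAACA and TGTTCT with 3 bases between), which contains the hexamer, was in 0 of the 161 and in 0.00913% of all. The other motifs can overlap by a base or more and were counted separately. The 161 windows were all of lncRNA genes and all inside H3K27ac peaks, while the 32851 were not limited to either. The sets thus differ in more than distance from a coding gene. These are descriptions of letters in short windows and no test was made of the differences.

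Of the members, 5836 passed the filter on low counts and 387 did not. With Cort, 95 were higher and 44 lower than vehicle (edgeR's quasi-likelihood test; p-values adjusted by Benjamini and Hochberg's method across the 59881 peaks tested, called when under 0.05). That was 2.38% of tested members, where 1.55% of all tested peaks were called, 1.18% higher and 0.376% lower. With Dex, 210 were higher and 237 lower, 7.66% against 5.24% of all tested peaks (2.9% higher and 2.34% lower). With IL4, 1090 were higher and 1028 lower, 36.3% against 27.6% (14.7% higher and 12.9% lower). The 3 comparisons share the vehicle libraries. The median log2 fold change of tested members was -0.08 with Cort, -0.114 with Dex and -0.06 with IL4, and over all tested peaks 0.003, 0.01 and -0.023.

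Same-numbered H3K27ac libraries deviated together, and with the replicate number as a block the same test called far more members. Cort then gave 415 higher and 602 lower (17.4% of tested members, against 12.6% of all tested peaks, 6.44% higher and 6.13% lower), Dex 626 higher and 968 lower (27.3% against 20.3%, 9.91% higher and 10.3% lower) and IL4 1521 higher and 1609 lower (53.6% against 43.5%, 21.9% higher and 21.6% lower). The Cort calls thus leaned to higher without the block and to lower with it. The scaling also set that balance: Cort gave 84 higher and 12 lower when scaled on low-count peaks and 75 and 59 when scaled on total counts, and Dex gave 166 and 291 on total counts. Single libraries mattered too. The Cort total of 139 became 60 without Cort replicate 1, 59 without Cort replicate 3, and 89, 52 and 44 without vehicle replicates 1, 2 and 3. The Dex total of 447 became 208 without Dex replicate 1, 209 without Dex replicate 3, and 245 and 179 without vehicle replicates 2 and 3.

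The share of peaks called with IL4 was lowest inside coding genes and level beyond 50 kb. It was 24.5% for peaks in a gene, 29.3% up to 10 kb away, 34.3% from 10 to 50 kb, and 35.9%, 36.6%, 36.4% and 36.9% in the 4 bins of members from 50 to over 400 kb. The Dex share was 4.43% in genes and 7.71%, 7.92%, 7.98% and 5.66% in the 4 bins of members. The Cort share was 1.25% in genes and 2.13%, 2.71%, 3.12% and 0.839% in those bins. Peaks in genes were longer (median 1075 bp) than those over 400 kb away (680 bp), and the differences between bins were not tested.

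**Figure D1:**
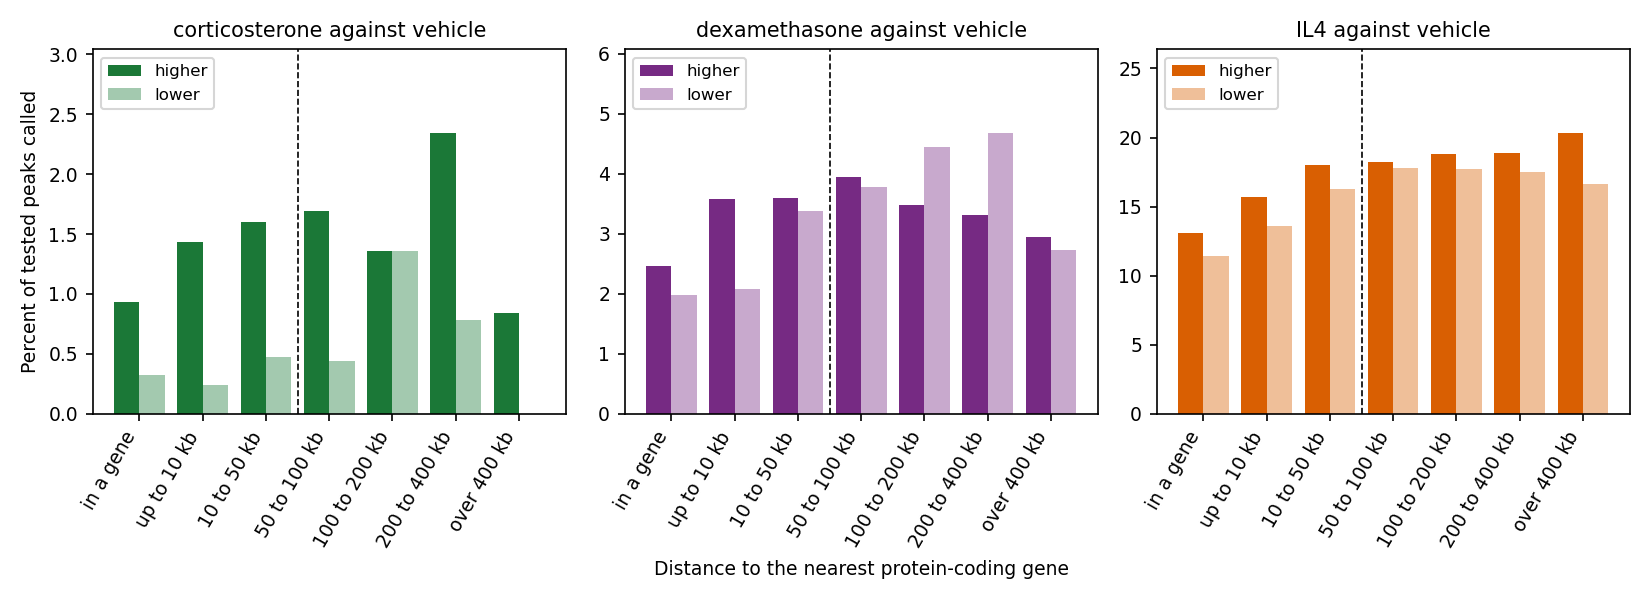
Percent of tested H3K27ac peaks under 8000 bp called higher (dark bars) or lower (pale bars) than vehicle, by distance to the nearest protein-coding gene, for each treatment. The dashed line marks 50 kb, to the right of which the peaks are members. With IL4 the higher calls run from 13.1% in genes to 20.3% over 400 kb away.

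Among named members, the largest rises with glucocorticoid were near Trpm3, Sv2b and Ncoa2. Their means went from 2.34, 3.39 and 3.87 CPM in vehicle to 84.0, 62.3 and 50.5 in Dex. A choice by fold change favours low vehicle levels. The largest change was at chr19:23055641-23058868, which lies between Trpm3 (a cation channel, 60.2 kb) and Klf9 (a Kruppel-like factor known as a glucocorticoid target, 82.4 kb) and overlaps the lncRNA C330002G04Rik whose start is printed above. Its H3K27ac was 3.71, 2.38 and 0.93 CPM in vehicle, 62.5, 57.0 and 54.9 in Cort, 84.7, 82.2 and 85.0 in Dex, and 4.81, 1.62 and 1.69 in IL4. Both steroid groups lay wholly above the others, and IL4 overlapped vehicle. The log2 fold change was 4.73 ± 0.41 with Cort and 5.26 ± 0.42 with Dex (SE; edgeR, adjusted p = 5.94e-05 and 1.87e-05).

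The member at chr7:74988387-74991848, 123 kb from Sv2b (a synaptic vesicle protein gene), read 4.09, 3.85 and 2.23 CPM in vehicle. It read 58.1, 55.4 and 41.2 in Cort and 63.7, 62.5 and 60.7 in Dex. The 3 IL4 libraries, at 5.05, 3.65 and 2.03, lay among the vehicle values, and the log2 fold change was 3.96 ± 0.29 with Cort and 4.23 ± 0.3 with Dex. The member at chr1:13453501-13455838, 79.3 kb from Ncoa2, read 5.32, 3.6 and 2.67 CPM in vehicle, 45.8, 44.7 and 33.7 in Cort and 56.6, 54.9 and 40.1 in Dex. Ncoa2 encodes a coactivator that steroid receptors recruit. Its log2 fold change was 3.46 ± 0.27 with Cort and 3.74 ± 0.27 with Dex (edgeR, adjusted p = 2.65e-05 and 8.73e-06).

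The other members that the naming rule picked for a rise with steroid spanned a range of sizes. With Dex, H3K27ac rose by a log2 fold change of 3.41 near Csnk1g3 (a casein kinase 1 gene), 3.37 near Sec61g (a translocon subunit), 3.18 near the predicted gene Gm38821 and 3.0 near Lipg (endothelial lipase). It rose by 2.81 near Id2, 2.62 near Slc7a11 (the cystine/glutamate exchanger) and 2.62 near Arid1b (a subunit of the BAF chromatin remodeller). With Cort these members rose by 2.22, 2.92, 2.71, 2.98, 2.25, 2.41 and 2.55 in the same order. The rule took only members whose treated libraries all lay beyond the vehicle libraries, so that separation is no finding. Of the 10 members, 9 held a GR peak. The exception was chr6:51016063-51017527 near Gm38821.

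The member at chr17:4354450-4356747, 638 kb from Arid1b, moved in opposite directions with steroid and IL4. It read 6.81, 9.83 and 6.95 CPM in vehicle, 37.1, 60.7 and 40.2 in Cort, 43.3, 56.3 and 46.0 in Dex, and 2.34, 1.46 and 0.677 in IL4. No library of one of these 3 levels overlapped another level: steroid was above vehicle and vehicle above IL4. The fold change with IL4 was -2.49 ± 0.35 (log2; edgeR, adjusted p = 0.000224), and Dex against IL4 gave 5.11 ± 0.35 (adjusted p = 1e-06), the highest of the members named for that comparison. The Slc7a11 member, chr3:50735377-50738125, rose with all 3 agents, by 1.14 ± 0.38 with IL4 (edgeR, adjusted p = 0.0413).

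**Figure D2:**
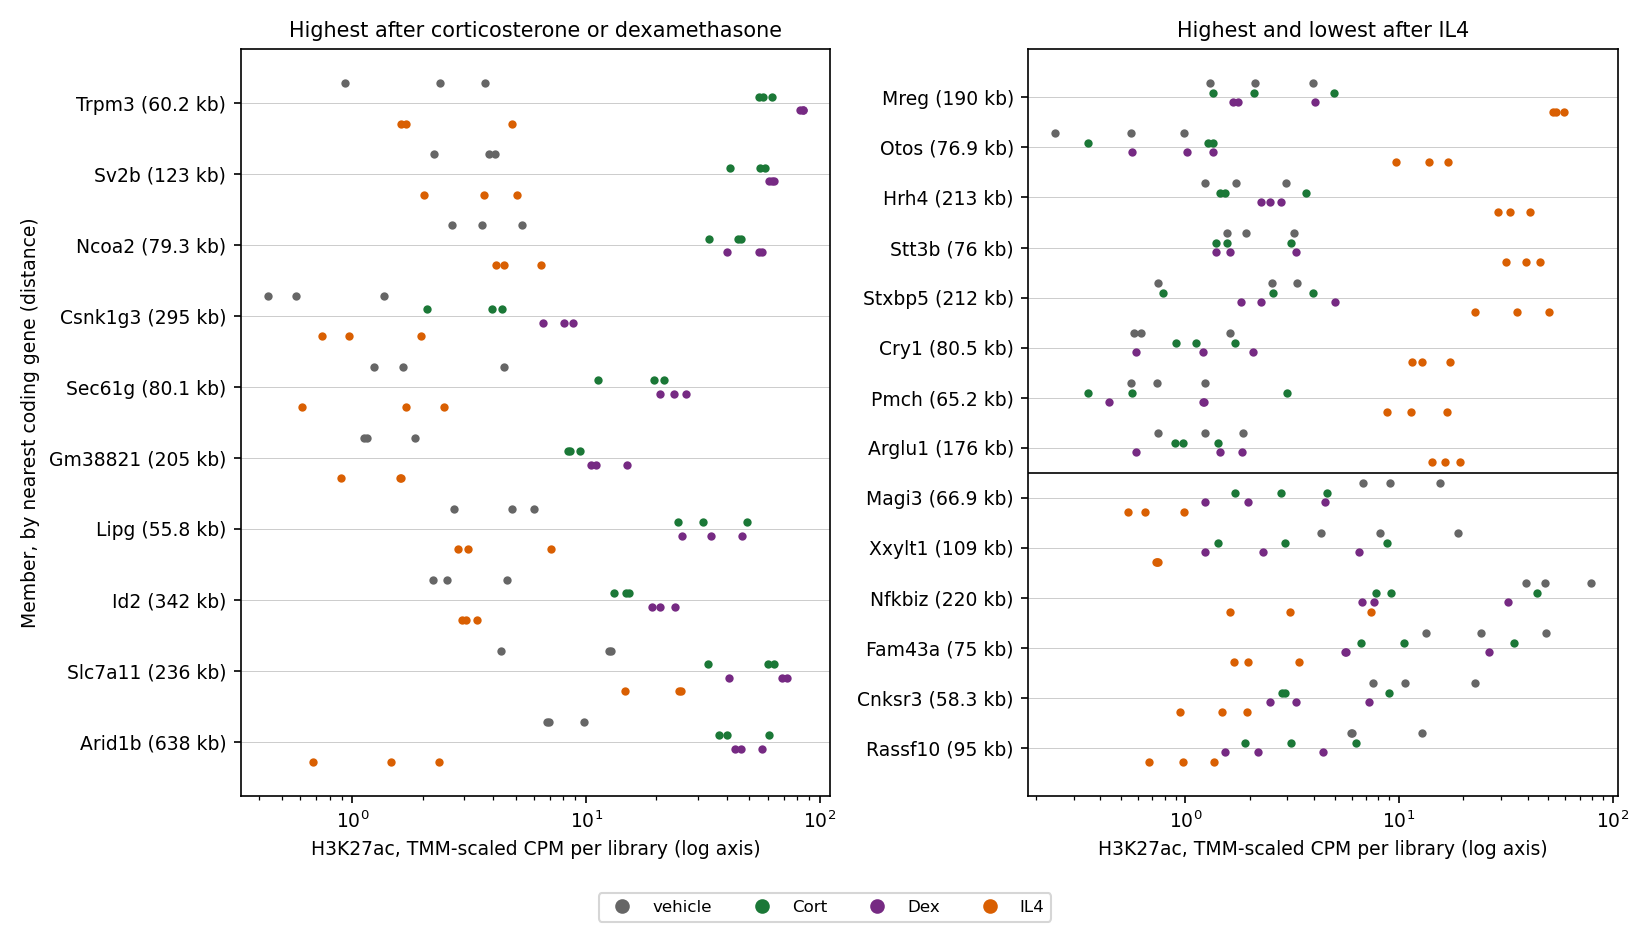
H3K27ac in each library (TMM-scaled CPM, log axis) at the members named for the largest changes. Each row is a member, labelled by its nearest coding gene and distance, and each point a library, coloured by group. On the left the steroid libraries lie to the right of vehicle, and IL4 falls below vehicle at the Arid1b member. On the right IL4 stands apart from vehicle, above it in the upper 8 rows and below it in the lower 6. The naming rule took only members whose treated libraries all lay beyond vehicle, so these separations are no finding.

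Members named for a fall with steroid fell by less than the risen ones rose. Here too the rule fixed the separation from vehicle for the steroid that named the member. At chr12:79997695-79999950, 108 kb from Zfp36l1 (an mRNA decay factor), vehicle read 16.2, 26.3 and 22.7 CPM, Cort 4.82, 9.41 and 5.05, and Dex 5.63, 6.83 and 3.8. IL4, at 20.5, 26.3 and 24.6, overlapped vehicle, and both steroid groups were below both. The log2 fold change was -1.73 ± 0.29 with Cort and -2.01 ± 0.29 with Dex (edgeR, adjusted p = 0.00802 and 0.00163).

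Other falls differed in what IL4 did. At chr18:3766893-3770718, 250 kb from Bambi (a pseudoreceptor of the TGF-beta family), vehicle read 22.8, 37.8 and 31.8 CPM, Cort 9.92, 12.4 and 10.8, Dex 6.24, 9.57 and 6.73, and IL4 7.76, 5.19 and 9.95. All 3 treated groups lay below vehicle there. The Cort call near Bambi was lost without Cort replicate 1 (edgeR, adjusted p = 0.0582), Cort replicate 3 (0.0505) or vehicle replicate 3 (0.053). With all libraries and the replicate block it was called (edgeR, adjusted p = 1.16e-05).

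At chr12:52627012-52629825, 55.0 kb from Arhgap5, vehicle read 11.6, 14.9 and 16.2 CPM, Cort 4.96, 6.07 and 4.94, Dex 4.4, 4.74 and 4.31, and IL4 31.1, 32.2 and 33.4. Steroid lowered the mark and IL4 raised it, with no overlap between the 3 levels. The log2 fold change was -1.41 ± 0.17 with Cort, -1.67 ± 0.17 with Dex and 1.17 ± 0.16 with IL4 (edgeR, adjusted p = 0.000837, 0.000143 and 0.000204). The members near Ptchd1, Atp5g3 and Myo16 fell by 1.48, 1.44 and 1.35 with Cort, and those near Tle1, Ptprm, Magi3 and Arhgap21 fell by 2.2, 2.1, 2.02 and 1.98 with Dex (log2). The call of each of these 7 was lost when 1 or more single libraries were left out, with adjusted p up to 0.188. With all libraries and the replicate block all 7 were called (edgeR, adjusted p from 5.03e-07 to 0.000567).

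Between the steroids no member was called different. For Dex against Cort, edgeR called 0 of 5836 tested members (0.0% of all tested peaks), with or without the replicate block, and DESeq2 also called 0. At an unadjusted p under 0.05 there were 78 members and 793 of all tested peaks. The 95% interval of the log2 difference had a median half-width of 0.79, and for 2909 members (49.8%) it lay within 1 log2 unit of 0. At the Trpm3 and Klf9 member the difference was 0.53, with an interval from -0.17 to 1.23, and at the Csnk1g3 member 1.19, from 0.37 to 2.01. Concentrations differed (500 and 100 nM), so the values stand side by side and do not rank the compounds.

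IL4 changed the most members. Its named rises were at regions with little mark in every other group. A choice by fold change favours low vehicle levels, so the low vehicle level is no finding. The naming rule again fixed the separation of IL4 from vehicle, for rises and falls alike, so it is no finding. At chr1:71966591-71969593, 190 kb from Mreg (melanoregulin) and over the lncRNA 4933417E11Rik, H3K27ac was 3.96, 2.13 and 1.3 CPM in vehicle, and 4.04, 1.77 and 1.68 in Dex. It was 59.3, 54.1 and 52.6 in IL4, above every other library. The log2 fold change was 4.56 ± 0.46 (edgeR, adjusted p = 2.1e-05).

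The member at chr1:92725793-92727079, 76.9 kb from Otos, read 0.991, 0.246 and 0.558 CPM in vehicle and 16.9, 9.72 and 13.8 in IL4. The member at chr9:115386438-115388735, 76.0 kb from Stt3b (an oligosaccharyltransferase subunit), read 3.22, 1.56 and 1.92 CPM in vehicle and 39.3, 31.8 and 45.6 in IL4. The member at chr10:85265586-85267050, 80.5 kb from Cry1 (a repressor of the circadian clock), read 1.61, 0.573 and 0.62 in vehicle and 17.4, 11.5 and 12.8 in IL4. In all of these the IL4 libraries were the highest and the other groups overlapped. The log2 fold changes with IL4 were 4.55 near Otos, 4.18 near Hrh4 (the histamine H4 receptor), 4.16 near Stt3b, 4.11 near Stxbp5, 3.98 near Cry1, 3.92 between Pmch and Igf1, and 3.77 near Arglu1. None of these 8 members held a GR peak, and none was called with Cort or Dex.

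The members named for a fall with IL4 had the opposite form, high in vehicle and low in IL4, with the steroid means between. The choice by fold change favours such vehicle and IL4 levels, so those are no finding. At chr16:55588120-55591094, 220 kb from Nfkbiz (an atypical inhibitor of NF-kB and regulator of its target genes), vehicle read 39.3, 79.1 and 48.4 CPM, Dex 6.73, 32.4 and 7.6, and IL4 3.08, 7.37 and 1.62. Replicate 2 was the highest library in each of these groups. The log2 fold change was -3.78 ± 0.8 with IL4 (edgeR, adjusted p = 0.00349). With Dex it was -1.82 (edgeR, adjusted p = 0.17), and with the replicate block -2.14 (adjusted p = 3.44e-07).

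The other members named for a fall with IL4 were near Magi3 (-3.9), Xxylt1 (-3.82), Fam43a (-3.61), Cnksr3 (-3.24) and Rassf10 (-3.09). Vehicle replicate 2 was the highest vehicle library at all 6. With Dex, only the Magi3 member was called without the block (-2.02, edgeR, adjusted p = 0.0221). With the block the Dex values at Xxylt1, Fam43a, Cnksr3 and Rassf10 passed as well (edgeR, adjusted p = 8.24e-05, 2.15e-05, 2.37e-06 and 2.07e-05).

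Set against each other, Dex and IL4 differed at 788 members higher and 1164 lower in Dex, 33.4% of those tested where 26.7% of all tested peaks were called (12.1% higher and 14.6% lower). With the replicate block the counts were 1345 and 1639 (51.1% against 42.7%, 21.2% higher and 21.5% lower). The 4 members named as lowest in Dex lay near Mreg (given above), Otos (chr1:92717710-92719594), Gcfc2 and Actbl2. Each was higher in IL4 than in vehicle, by 4.56, 4.5, 3.68 and 3.45 on the log2 scale, and was not called with Dex against vehicle (log2 0.04, 0.06, -0.63 and -0.82, edgeR, adjusted p = 0.98, 0.968, 0.585 and 0.0763). Near Gcfc2, vehicle read 1.11, 0.655 and 0.93 CPM, Dex 0.979, 0.402 and 0.439, and IL4 11.3, 10.8 and 12.4. Near Actbl2, at chr13:111098512-111100554, vehicle read 2.48, 3.03 and 3.04, Dex 1.47, 1.69 and 1.68, and IL4 32.9, 30.1 and 31.9. The Dex libraries of both lay below all IL4 libraries, which the naming rule required. The log2 differences, Dex minus IL4, were -4.31 ± 0.46 and -4.27 ± 0.24.

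At some loci many members were called in 1 direction with IL4. Of the members nearest to Mreg, 17 of 21 tested rose with IL4 and 0 fell, with a median log2 fold change of 2.088, and near Tcf4 (an E-protein factor) 15 of 19 rose and 0 fell, with a median of 1.679. Near Tmsb4x (thymosin beta 4, an actin-binding peptide) 13 of 22 fell and 0 rose, and near Maf (a macrophage bZIP factor) 11 of 20 fell and 1 rose. Over all tested peaks IL4 raised 14.7% and lowered 12.9%. With Dex, among the 38 genes nearest to 20 or more members, the highest counts were 9 of 50 falling near Adgrl2 and 5 of 30 rising near Klf4. With the block these were 19 and 12, and 19 of 54 fell near Myc. Shares without the block were higher near Dusp4, with 5 of 26 falling, and near Dleu7, with 4 of 19 rising. Over all tested peaks Dex raised 2.9% and lowered 2.34% (9.91% and 10.3% with the block). These loci were picked from the table after their values were seen.

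The 4 chains with most members behaved differently. The chain with most members, 50 at chr15:62043133-62482951, began 52.8 kb from Myc and spanned 440 kb. Of its 46 tested members IL4 raised 9 and lowered 5 and Dex lowered 4. Over all tested peaks IL4 raised 14.7% and lowered 12.9%, and Dex lowered 2.34%. The chain's IL4 values ran from -2.64 to 2.87. The called rises lay up to 121 kb from the chain's first base, apart from 1 at 218.5 kb, and the called falls began at 181 kb. At chr15:62286418-62288777, 296 kb from Myc, H3K27ac averaged 28.4 CPM in vehicle, 9.22 in Dex and 14.4 in IL4, a log2 fold change of -1.62 with Dex (edgeR, adjusted p = 0.00272). With the replicate block Dex lowered 17 members of the chain, and 10.3% of all tested peaks.

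The chain of 36 members at chr3:149169430-149497524, nearest to Adgrl2, went one way. IL4 lowered 22 of its 33 tested members and raised 0, with a median of -1.062, and Dex lowered 7 and raised 0, with a median of -0.665. With the block Dex lowered 15. A chain of 45 members lay between Eea1 (an endosome tether) and Btg1 (an antiproliferative factor), at chr10:96115076-96565774. Of its 43 tested members, 7 were higher and 5 lower with IL4 (11 and 7 with the block). Over all tested peaks IL4 raised 14.7% and lowered 12.9% (21.9% and 21.6% with the block). The counts without the block were near those shares and do not set this chain apart.

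**Figure D3:**
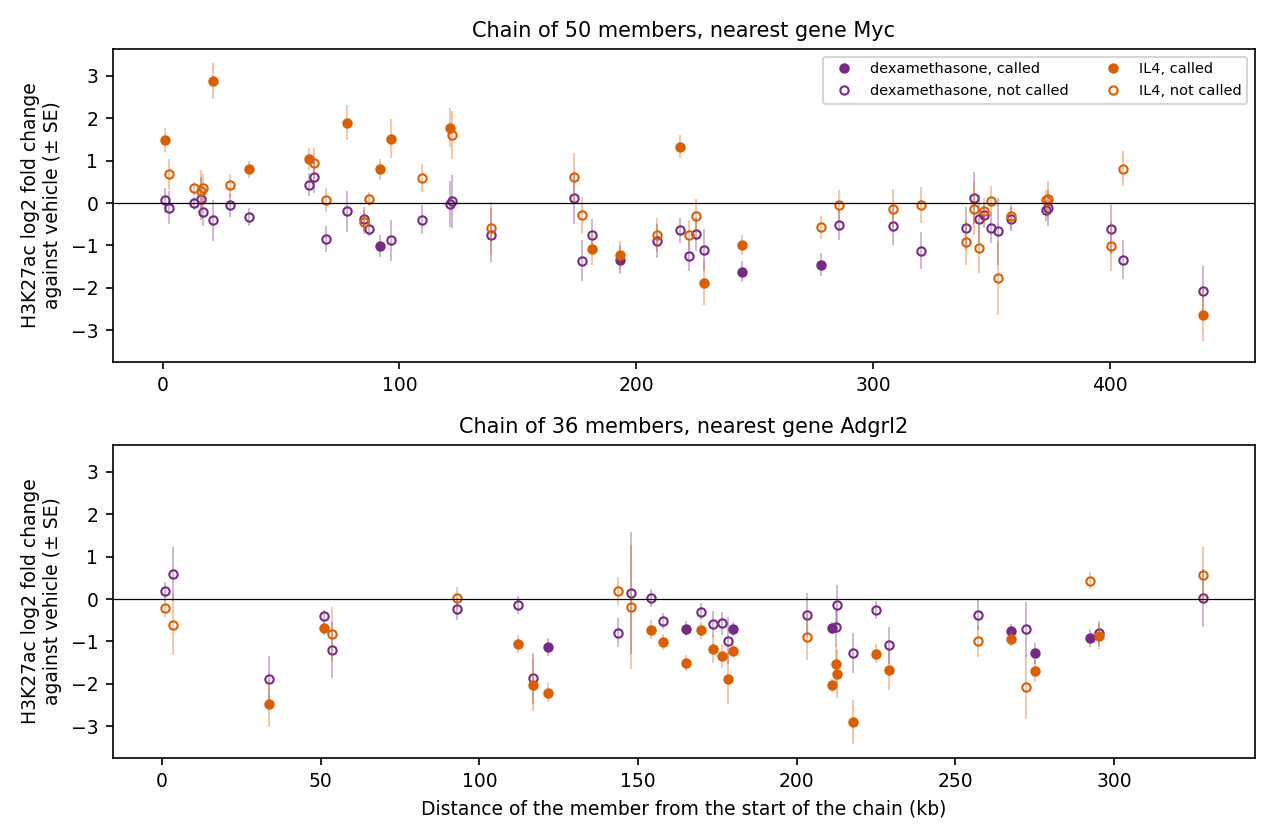
Log2 fold change of H3K27ac against vehicle at each tested member of the Myc chain (top) and the Adgrl2 chain (bottom), by distance from the chain's first base. Purple is dexamethasone, orange IL4, filled points were called and bars are standard errors. In the Adgrl2 chain 22 of 33 members are called lower with IL4, while the Myc chain holds calls in both directions.

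The fourth chain was unlike the rest. Its 36 members lay in 35.0 kb at the start of the assembled chromosome 9 (chr9:3000524-3035489), with Alkbh8 the nearest coding gene and a median level of 46.3 CPM per kb. None of them was called against vehicle, with or without the replicate block, and their IL4 values ran only from -0.14 to 0.18. The 6 members with the highest level were 4 of this chain and chr3:56575401-56575807 (72.0 CPM per kb, nearest gene Nbea) and chr12:74803838-74804558 (70.4, nearest gene Kcnh5). At the Kcnh5 member the vehicle libraries read 75.4, 42.8 and 28.8 CPM, in the reverse order of their depth. The authors' input library was not analysed here, so the level without the antibody is not given for these members.

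Members were grouped by lists of genes of known roles, which were drawn up with results of these data known. Counts over neighbouring members of 1 locus are not independent. They are to be read against the shares called among all tested members, which were 2.38% with Cort, 7.66% with Dex and 36.3% with IL4, and 17.4%, 27.3% and 53.6% with the block. With the block, 6.44% of all tested peaks were higher and 6.13% lower with Cort, 9.91% and 10.3% with Dex, and 21.9% and 21.6% with IL4. Of 44 glucocorticoid-induced genes, 12 were nearest to a member, with 84 tested members. Cort raised 6 and lowered 1 and Dex raised 11 and lowered 3, with medians of 0.264 and 0.308 against -0.08 and -0.114 for all members. With the block the counts were 20 and 5, and 23 and 6. That was 8.33% called with Cort and 16.7% with Dex, and 29.8% and 34.5% with the block. The clearest was chr12:85531184-85535050, 53.9 kb from Fos (a subunit of AP-1), at 50.4, 55.7 and 54.6 CPM in vehicle, 155, 159 and 150.0 in Cort, 150.0, 188 and 137 in Dex and 29.8, 32.8 and 30.5 in IL4. Steroid was above vehicle and IL4 below it, with no overlap (log2 1.53 ± 0.13, 1.57 ± 0.13 and -0.79 ± 0.13, edgeR, adjusted p = 4.67e-05, 2.16e-05 and 0.000635).

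Klf4, a Kruppel-like factor of IL4-activated macrophages that stood in both the glucocorticoid and the IL4 list, was nearest to 30 tested members. Cort raised 3, Dex raised 5 and lowered 1, and IL4 raised 10 and lowered 4. With the block the counts were 10 and 1, 12 and 1, and 14 and 8. At chr4:55796743-55799212, 264 kb away, all 3 agents raised H3K27ac, by 0.78 with Cort, 0.83 with Dex and 0.92 with IL4 from a vehicle mean of 22.3 CPM. At chr4:55810779-55813728, IL4 raised it most, by 2.5, from a mean of 9.74 to 54.9 CPM. At chr4:55472053-55473408, Dex raised it by 1.23 and the IL4 value was -0.52 (edgeR, adjusted p = 0.103).

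Of 112 tested members by IL4 and STAT6 targets, IL4 raised 32 and lowered 11, with a median of 0.337 against -0.06 for all members. The members near Klf4 and Plk2 (a polo-like kinase) led, Plk2 with a rise from 5.32 to 22.9 CPM at chr13:110599469-110601193. Dex raised 5 and lowered 6 of this list and Cort raised 3 and lowered 0. With the block IL4 raised 49 and lowered 23, Dex raised 14 and lowered 25, and Cort raised 12 and lowered 13. The share called with IL4 was 38.4%, and 64.3% with the block. Of 142 members by genes of the macrophage lineage, IL4 raised 19 and lowered 21. Cort raised 6 and lowered 0 and Dex raised 9 and lowered 2. With the block the rises and falls were near even with the steroids, 13 and 15 with Cort and 21 and 22 with Dex, and IL4 raised 24 and lowered 43. The share called with IL4 was 28.2%, and 47.2% with the block, below the share of all members. At chr12:25438090-25439738, 342 kb from Id2, vehicle read 4.58, 2.21 and 2.54 CPM, Cort 13.2, 14.8 and 15.3, and Dex 24.1, 19.1 and 20.8, with the groups apart. At chr8:115596442-115598857, 104 kb from Maf, the mean fell from 43.9 CPM in vehicle to 13.2 in IL4 (log2 -1.73, edgeR, adjusted p = 5.35e-05) and was 41.4 in Dex.

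Of 148 members by STAT, KLF and bZIP regulators, Cort raised 7 and lowered 0, Dex raised 10 and lowered 3, and IL4 raised 29 and lowered 24. With the block the counts were 24 and 5, 37 and 9, and 41 and 40. The share called with IL4 was 35.8%, near that of all members, and 54.7% with the block. This list shares the Fos and Klf4 members with the lists above. Of 19 members by lipid genes, IL4 raised 4 and lowered 1 (8 and 1 with the block), and Dex raised 0 and lowered 1 (0 and 3). At chr4:53238509-53241232, 78.5 kb from Abca1 (the cholesterol exporter), the mean was 23.7 CPM in vehicle, 47.5 in IL4 and 15.2 in Dex (log2 1.0 and -0.64, edgeR, adjusted p = 0.000442 and 0.0316). Of 18 members by inflammatory and interferon genes, none was called with either steroid (with the block 1 rose and 2 fell with Cort, and 2 rose and 2 fell with Dex), and 2 rose and 1 fell with IL4 (3 and 4 with the block). The fall was 91.6 kb from Il6 (log2 -2.24, edgeR, adjusted p = 0.0328) and a rise 152 kb from Tnfaip3 (an NF-kB inhibitor; 2.01, adjusted p = 0.00146). At the Il6 member the Cort and Dex values were -0.82 and -1.26 (edgeR, adjusted p = 0.661 and 0.335). The list of phagocytosis genes had 1 tested member, by Msr1, higher with IL4.

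Members that overlapped a lncRNA or other gene were called about as often as those that overlapped none. With IL4 the share was 36.3% in both, and with Dex 8.21% and 7.45%. Of the 140 members that held a whole promoter window, IL4 raised 30 and lowered 25. It raised 18.7% and lowered 17.6% of all tested members, and 14.7% and 12.9% of all tested peaks. The counts were thus near the shares of all members. The member that starts Gm6116, 54.6 kb from Chic2, rose by 3.7 ± 0.49 with IL4 (edgeR, adjusted p = 0.000162). The member that starts A730082K24Rik fell by 2.71 with IL4 and by 1.84 with Dex, and those that start 4930471E19Rik and Gm30530, the latter 365 kb from Runx1 (a blood lineage factor), rose with Dex by 1.7 and 1.39.

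GR peaks lay in 477 members (7.67%), and in 5.34% of the other peaks under the length limit. The members held 501 of the authors' 8394 GR peaks, each counted once, at the H3K27ac peak it overlapped most. With every overlap counted, 451 members held 1 GR peak, 24 held 2 and 2 held 3. Members with a GR peak were longer (median 1884 bp against 810.5) and higher (10.3 against 3.58 CPM per kb) than those without. Among members called higher with Cort, 54 of 95 (56.8%) held a GR peak, against 1 of 44 called lower (2.27%) and 7.39% of those not called. With Dex it was 82 of 210 higher (39.0%), 11 of 237 lower (4.64%) and 7.11% not called. With IL4 the order was different: 4.4% of the higher, 8.17% of the lower and 9.25% of the others.

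The same shares in the more abundant 50% of tested members were 60.2%, 2.63% and 12.4% with Cort and 45.6%, 5.7% and 12.1% with Dex. Peaks within 50 kb of a coding gene gave 51.5%, 3.41% and 5.14% with Cort and 35.9%, 3.21% and 4.81% with Dex, so the split by direction was also there outside the members, and its difference from members was not tested. With the replicate block, under which more members were called, 34.5% of 415 members higher with Cort and 25.9% of 626 higher with Dex held a GR peak. Leaving out single libraries gave 58.2% to 73.7% for Cort and 37.2% to 54.4% for Dex.

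**Figure D4:**
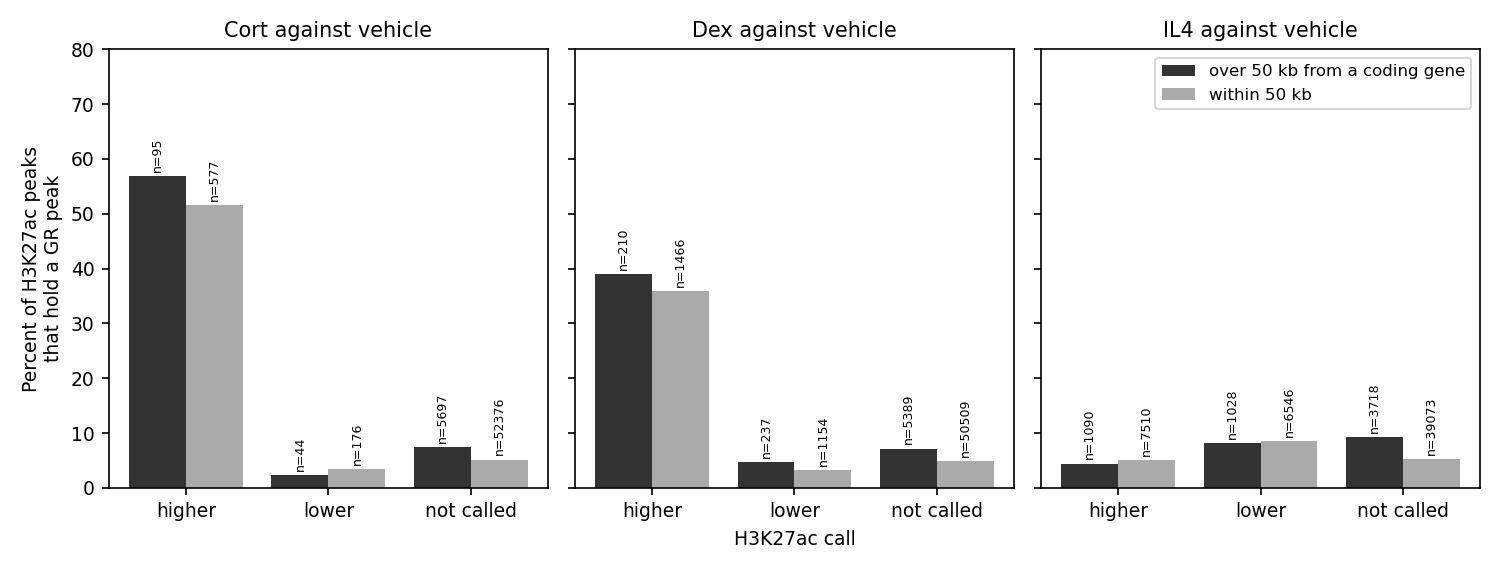
Percent of H3K27ac peaks that hold a GR peak, by the H3K27ac call against vehicle, for members (dark) and for other peaks under 8000 bp (grey). The number of peaks stands on each bar. Among members called higher, 56.8% (Cort) and 39.0% (Dex) hold a GR peak, and with IL4 4.4%.

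GR occupancy was compared at the 431 GR peaks in members that passed the count filter. With Cort, 83 were higher and 34 lower than vehicle (27.1% of them, where 27.6% of all tested GR peaks were called, 12.8% higher and 14.8% lower). With Dex, 99 were higher and 35 lower (31.1% against 30.3% of all, 14.7% higher and 15.6% lower). With IL4, edgeR called 0 (0.0% of all), and DESeq2 called 1 higher and 24 lower. An unadjusted p under 0.05 was found with edgeR at 54 of the 431, and at 612 of all 5183 tested GR peaks. Within batch 1, with 2 libraries a group, Cort gave 79 higher and 28 lower and Dex 80 and 52 of 335. Within batch 2 none was called with any agent. Scaling on total counts moved the median of all GR peaks by 0.81 (Cort) and 0.99 (Dex) on the log2 scale. It left 166 higher and 0 lower with Cort and 230 and 1 with Dex, among them all 83 and 99 of the higher calls. Shares over all GR peaks are not given for the DESeq2, single-batch and total-count fits, so those counts do not set members apart.

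At the GR peak chr19:23056835-23057211, inside the member between Trpm3 and Klf9, GR was 5.66, 3.34, 4.45 and 7.75 CPM in vehicle, 99.6, 93.5, 60.5 and 91.7 in Cort, 129, 91.1, 75.0 and 115 in Dex, and 3.42, 10.7 and 7.52 in IL4. The 8 steroid libraries were above all 7 others, and IL4 overlapped vehicle. The log2 fold change was 4.01 ± 0.39 with Cort and 4.27 ± 0.4 with Dex (edgeR, adjusted p = 4.14e-05 and 1.76e-05). In batch 1 alone the values were 4.58 and 4.73, and in batch 2 alone 3.53 and 3.94, where the adjusted p of 0.148 and 0.0807 missed the threshold.

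The GR peak chr12:85532527-85532916 in the Fos member read 11.3, 13.4, 14.6 and 11.6 CPM in vehicle, 102, 97.5, 54.2 and 68.6 in Cort and 83.2, 94.5, 53.6 and 84.1 in Dex. IL4, at 8.89, 14.0 and 13.5, overlapped vehicle, while its H3K27ac there was lower than vehicle. GR rose by 2.6 ± 0.28 with Cort and 2.59 ± 0.28 with Dex. The GR peaks chr6:50973307-50973714 (nearest gene Gm38821, 248 kb) and chr13:4791173-4791526 (Akr1e1, an aldo-keto reductase, 181 kb) rose by 2.67 and 2.5 with Cort and by 2.86 and 2.69 with Dex. Their H3K27ac rose by 1.76 and 2.03 with Cort.

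All 9 GR peaks inside the steroid-raised members named above were higher with both steroids. With Cort the log2 fold changes ran from 1.59 (Ncoa2) through 1.66 (Csnk1g3), 1.81 (Arid1b), 1.95 (Slc7a11), 2.27 (Id2), 2.8 (Sv2b), 2.95 (Sec61g) and 3.25 (Lipg) to 4.01 at the Trpm3 and Klf9 member. With IL4 their GR values lay between -0.27 and 0.68, and none was called. GR at the Arid1b member was thus not called with IL4 (-0.25, edgeR, adjusted p = 0.914), where H3K27ac fell.

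**Figure D5:**
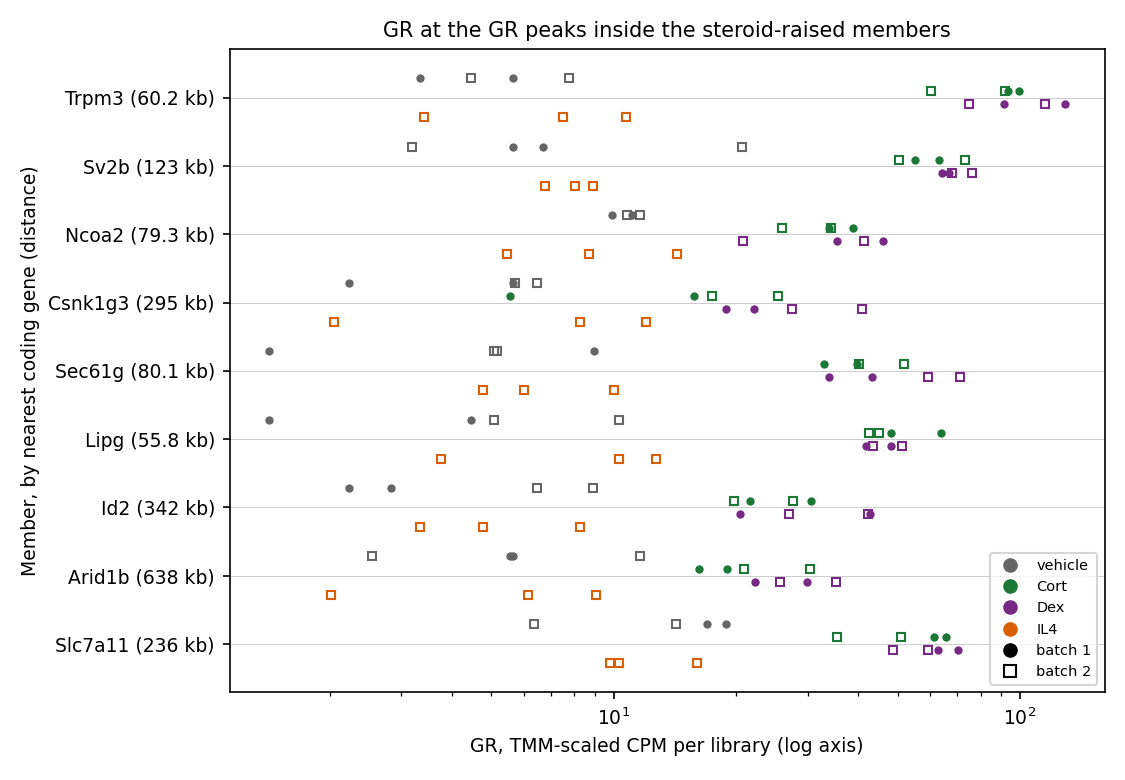
GR in each library (TMM-scaled CPM, log axis) at the 9 GR peaks inside the members named for a rise with steroid, labelled by the member's nearest coding gene and distance. Filled circles are batch 1 and open squares batch 2. At each peak the IL4 libraries overlap vehicle, and the Cort and Dex libraries lie to the right of vehicle, apart from 1 Cort library near Csnk1g3 (5.56 CPM).

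H3K27ac was then compared at the members that held a GR peak called higher. Of the 80 members that held a GR peak higher with Cort, 37 were higher for H3K27ac and 0 lower, 77 had a value above 0 and the median log2 fold change was 1.0. Of the 95 with a GR peak higher with Dex, 55 were higher and 0 lower, 92 were above 0 and the median was 1.1. Members with some other GR peak had medians of 0.13 and 0.08, and members without one -0.11 and -0.15. Of 5360 tested members without a GR peak, 41 were higher and 43 lower with Cort (0.765% and 0.802%). With Dex, 128 were higher and 226 lower (2.39% and 4.22%). The Gm38821 member was among those higher with each steroid. Over all tested peaks, 1.18% were higher and 0.376% lower with Cort, and 2.9% and 2.34% with Dex.

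The GR falls were at other members. Of the 84 GR peaks with the most reads, the top 1%, 25 lay in 24 members, and these gave 23 of the 34 GR peaks called lower with Cort and 23 of the 35 with Dex. Their median was -1.03 and -1.19, but -0.13 and -0.09 with total-count scaling. In all, 23 of the 36 members of the chromosome 9 chain held 25 GR peaks. There, at chr9:3023426-3023581, GR read 13800, 12900, 15300 and 31300 CPM in vehicle, 8860, 6090, 11500 and 10200 in Cort, and 6770, 6010, 9290 and 10500 in Dex. The 4 libraries of each steroid lay below the lowest of vehicle. Without the 1%, Cort gave 87 higher and 8 lower calls and Dex 107 and 12.

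A GR library stood apart: Cort replicate 4 held 43959 counts in the members' GR peaks outside the top 1%, against 3244 to 13380 in the other 14. Without it Cort gave 83 higher and 69 lower calls. At the GR peak in the Thbs1 member, chr2:117965877-117966020, levels were low (1.42, 1.11, 0.0 and 1.29 CPM in vehicle, 4.78, 6.02 and 4.51 in IL4). It was higher with both steroids, by 2.88 and 2.94, and had the smallest p with IL4 among members, 0.000388 before adjustment and 0.322 after (edgeR, log2 2.71 ± 0.59).

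As a share of all H3K27ac counts, members took 5.88% ± 0.149 in vehicle, 5.55% ± 0.367 in Cort, 5.47% ± 0.148 in Dex and 5.85% ± 0.247 in IL4 (SD, n = 3 each). The libraries were 6.03, 5.73 and 5.88% in vehicle and 5.63, 5.44 and 5.34% in Dex, which did not overlap. The difference of Dex from vehicle was -0.409 percentage points (two-sided exact permutation test, p = 0.1, the smallest that 3 against 3 allows). Cort differed by -0.329 (exact p = 0.2) and IL4 by -0.0335 (exact p = 0.9), and over the 4 groups the exact permutation p was 0.181. The 3 pairwise comparisons were not adjusted, since none could reach 0.05.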

How the data were processed

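The authors deposited peak tables with read counts per H3K27ac and GR peak in 12 and 15 libraries. Per the submitters' processing notes they used fastp, Bowtie2, SAMtools, MACS2 and featureCounts on build mm10, with no versions given here. Vehicle columns carry the letter C and were matched to vehicle by elimination, and the input library was not analysed here. The meaning of a column named filtered is not given in the sources used here.

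Distances were taken to 21887 protein-coding gene spans of RefSeq's GRCm38.p6 table. Counts were fitted for all peaks at once with edgeR 4.0.16 (R 4.3.3; filterByExpr, TMM, quasi-likelihood F test, Benjamini-Hochberg adjustment over all tested peaks, threshold 0.05), with a batch term for GR. SE is the size of the log2 fold change divided by the root of F. A member held a GR peak if the 2 shared at least 1 bp. For counts and tests of GR peaks, each was assigned to the H3K27ac peak it overlapped most. The scripts were tested on simulated data. Tables were handled with Python 3.11.15 (pandas 2.3.3, SciPy 1.17.1).

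Named members were, for each treatment, called members at or above the median level with every treated library beyond every vehicle library. The 8 highest and 6 lowest log2 fold changes were named, 1 for each nearest gene (4 in each direction for Dex against IL4). The 6 members of highest level, the 3 farthest and the 4 chains with most members were also named. So were GR peaks of highest level or smallest p, threshold neighbours and up to 3 members for each gene list. The members and lists were chosen with earlier results of these data known. Same-numbered H3K27ac libraries correlated at r = 0.268 to 0.678 in their deviations from group means over 18 pairs, against -0.449 to 0.0406 over 36 other pairs. The numbers were therefore taken to pair them. Deviations within a group cancel, so these ranges are not independent. Replicate 1 was the shallowest library of every H3K27ac group (6829787 to 7910848 counts), and shared depth was not separated from pairing. Alternatives covered scaling, the count filter, DESeq2 1.42.0, the samples fitted, the block, the distance limit and single libraries left out. Fits of GR batch 1 alone, fits without the 1% of GR peaks with most reads, and the settings for shares with a GR peak were chosen after seeing the data.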

Additional observations from a re-analysis of the deposited data

Results flagged for a closer look

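In 39 sets of 4 GR libraries, 5 held a library far from the other 3 by Dixon's criterion (a gap over 0.829 of the range); chance flags about 1 in 20 groups. Vehicle replicate 4 was the one in 4 of them. It read 6260.0 CPM against 2580 to 2980 at chr4:3089522-3091182, 6310.0 against 2670 to 3010 at chr9:3001163-3001485, 25500.0 against 10800 to 11900 at chr9:3002094-3002410 and 31300.0 against 12900 to 15300 at chr9:3023426-3023581. All 4 peaks were named for their high level, and their values move together, so they are not 4 separate flags. The other was Dex replicate 1 at chr6:50973307-50973714, which read 134.0 CPM against 91.1 to 96.0. The causes were not tested.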

How the results depend on the processing

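The count of members called with Cort (139) was 287 with DESeq2, 53 with the compared groups alone, 1017 with the replicate block, 86 over 100 kb from a coding gene, 225 over 20 kb, 19 over 50 kb from a gene of any kind, and 44 to 168 with a library left out. For Dex (447) it was 1594 with the block, 255 over 100 kb, 735 over 20 kb, 80 away from any gene and 179 to 628 with a library left out. For IL4 (2118) it was 1224, 3514 and 409 for the 3 distances, and 1526 to 1946 with a library left out. For Dex against IL4 (1952) it was 2984 with the block, 1123, 3285 and 370 for the 3 distances, and 1476 to 1862. Dex against Cort stayed at 0 in every setting run. The distance settings change how many members there are, and the cause of the other shifts was not tested.

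The share of Cort-higher members with a GR peak was 69.6% with the compared groups alone, 34.5% with the block and 58.2% to 73.7% with a library left out, and that of Dex-higher members 47.9%, 25.9% and 37.2% to 54.4%. GR calls in members were 77 without a count filter, 0 in batch 2 alone and 75 over 100 kb with Cort, and 91 to 152 with a library left out. With Dex they were 231 with total-count scaling, 0 in batch 2 alone, 81 over 100 kb and 113 to 132. With IL4 they were 25 with DESeq2 and 0 with a library left out. GR numbers did not pair the libraries (r from -0.197 to 0.226 over 15 same-numbered pairs), and their block gave 125 calls with Cort and 141 with Dex. The difference in the members' share of counts lay between -0.464 and -0.12 for Cort, -0.489 and -0.334 for Dex, and -0.159 and 0.0887 for IL4, where it turned positive without IL4 replicate 3, without vehicle replicate 1 (0.0416) and in peaks marked TRUE as filtered (0.0536). GR at chr12:71544544-71544654 turned to 0.97 with Dex under total-count scaling.

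For H3K27ac at named members, 660 of 697 alternative values kept their direction and call and 37 lost the call, all at members named for a fall with Cort or Dex. For GR, 516 kept them, 55 lost the call, 7 gained one and 1 reversed. In batch 2 alone, the GR libraries held 1289013 to 1981582 counts, with 4670 to 43959 in members' GR peaks outside the top 1%. There a GR peak with a log2 fold change of 3.53 missed the threshold, and the cause was not tested.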
